A study of Mus musculus with 6 samples.

Results

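Germ cell mRNA storage and translation control was described here by 7 genes, Ybx2, Ybx3, Boll, Dazap1, Papolb, Ddx25 and Tarbp2. All probe sets whose platform gene symbol named one of them, under its current or an older name, were taken. This gave 13 of the 45037 probe sets on the array that are not controls, a probe set being a group of short probes against a single transcript region. RNA came from whole testes of mice aged 12 weeks, 3 wild type (WT) and 3 with the Alkbh1-/- genotype (KO), all on a C57/BL6 background per the source label (spelled C53/BL6 in the genotype field), with 1 Affymetrix array per mouse. Alkbh1 encodes a dioxygenase of the AlkB family, and the comparison addressed its role in the testis. The sources used here do not state which part of the gene was deleted, or in which cells.

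Spermatids stop transcribing as their chromatin is compacted, so mRNAs for late sperm proteins are made earlier and kept silent in particles with RNA-binding proteins. Y-box proteins package and stabilise these mRNAs, while DAZ family proteins, cytoplasmic poly(A) polymerases, DEAD-box helicases and double-stranded RNA-binding proteins act on their export, tails and translation. Loss of several of these factors in mice is known to stop sperm formation at the spermatid stage.

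Ybx2 and Ybx3 belong to a family named after the Y-box, a promoter element whose core is an inverted CCAAT. The windows upstream of the annotated starts of both genes are shown, because they carry this core to a different extent, beside that of Tarbp2, the gene with the most matches among the 7. Capitals mark CCAAT or its reverse complement ATTGG. The windows are, in this order, chr11:69935649-69935898 (plus strand), chr6:131388451-131388700 (minus strand) and chr15:102517942-102518191 (plus strand), from RefSeq on GRCm38.p6.
Ybx2: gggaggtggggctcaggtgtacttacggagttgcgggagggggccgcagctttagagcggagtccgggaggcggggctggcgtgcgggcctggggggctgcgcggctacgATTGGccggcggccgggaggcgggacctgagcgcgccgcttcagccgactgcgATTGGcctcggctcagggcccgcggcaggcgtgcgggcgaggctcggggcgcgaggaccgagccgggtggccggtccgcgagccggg
Ybx3: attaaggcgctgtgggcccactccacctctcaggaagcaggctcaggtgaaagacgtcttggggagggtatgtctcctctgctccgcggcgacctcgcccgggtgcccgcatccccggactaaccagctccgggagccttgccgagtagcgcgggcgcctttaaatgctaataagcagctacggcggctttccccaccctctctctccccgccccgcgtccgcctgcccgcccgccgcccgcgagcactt
Tarbp2: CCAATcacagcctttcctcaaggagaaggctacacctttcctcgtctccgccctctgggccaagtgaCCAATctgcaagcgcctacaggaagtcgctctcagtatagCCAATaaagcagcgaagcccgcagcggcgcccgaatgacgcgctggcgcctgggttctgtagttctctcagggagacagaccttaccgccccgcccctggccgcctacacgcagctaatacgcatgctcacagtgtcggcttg
Ybx2 held ATTGG 2 times in this window and 0 times in its other listed window, Ybx3 held 0 matches and Tarbp2 held CCAAT 3 times. Of the 7 genes, all of which were matched in the table, 5 had at least 1 match in 250 bases upstream of a start. Of the 9 windows listed for the 7 genes 5 had a match (55.6%). Among 32851 windows of the same length 33.8% had one, and of 20 windows of 14 late-translated spermatid genes 7 had one. A match is a description of these letters and not a binding site.

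The 6 arrays were alike, with correlations from 0.989 to 0.996 across 27022 tested probe sets, where probe sets are not independent replicates. The tested probe sets were the upper 60% by mean level. WT replicate 1 stood apart on the low side and WT replicate 2 lay farthest from it. Alkbh1 at probe set 1434660_at read 8.43, 8.65 and 8.72 in WT and 5.76, 5.30 and 5.20 in KO, which marks the genotype groups as labelled if this probe set lies in the deleted part. The other tested Alkbh1 probe set, 1438681_at, read 6.97, 6.82 and 7.16 in WT and 6.03, 5.78 and 6.10 in KO. It did not pass the test (limma adjusted p = 0.0697). Spermatid and Sertoli cell markers of the tissue were read on every array, without detection calls. Mean log2 values of 9 elongating spermatid genes ran from 14.45 to 14.53, and those of 11 Sertoli cell genes from 9.31 to 9.42.

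No difference between KO and WT was called for the 7 genes, which does not show that they were unchanged. All 13 passed the level filter and 0 of 13 passed the test (limma, Benjamini-Hochberg adjusted p from 0.982 to 0.998), against 0.0407% of all tested probe sets (11 of 27022). At an unadjusted p under 0.05 there were 0 of 13, against 5.11% of all tested probe sets. This count depended on the setting. Ybx3 1451012_a_at had an unadjusted limma p of 0.0562 here and of 0.0334 with quantile normalization. The differences lay between −0.10 and 0.13 log2, 11 above 0 and 2 below, with a median of 0.037 against 0.013 over all tested probe sets, of which 56.4% were above 0. With quantile normalization 9 were above 0 and 4 below, with a median of 0.014. The 95% intervals of 12 of the 13 differences lay within 0.5 log2 on either side of 0. In size, each of the 13 differences was smaller than the spread between the highest and lowest of its own 3 WT values. The share of all tested probe sets for which this holds was not computed, so it cannot be called particular to these genes.

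**Figure D1:**
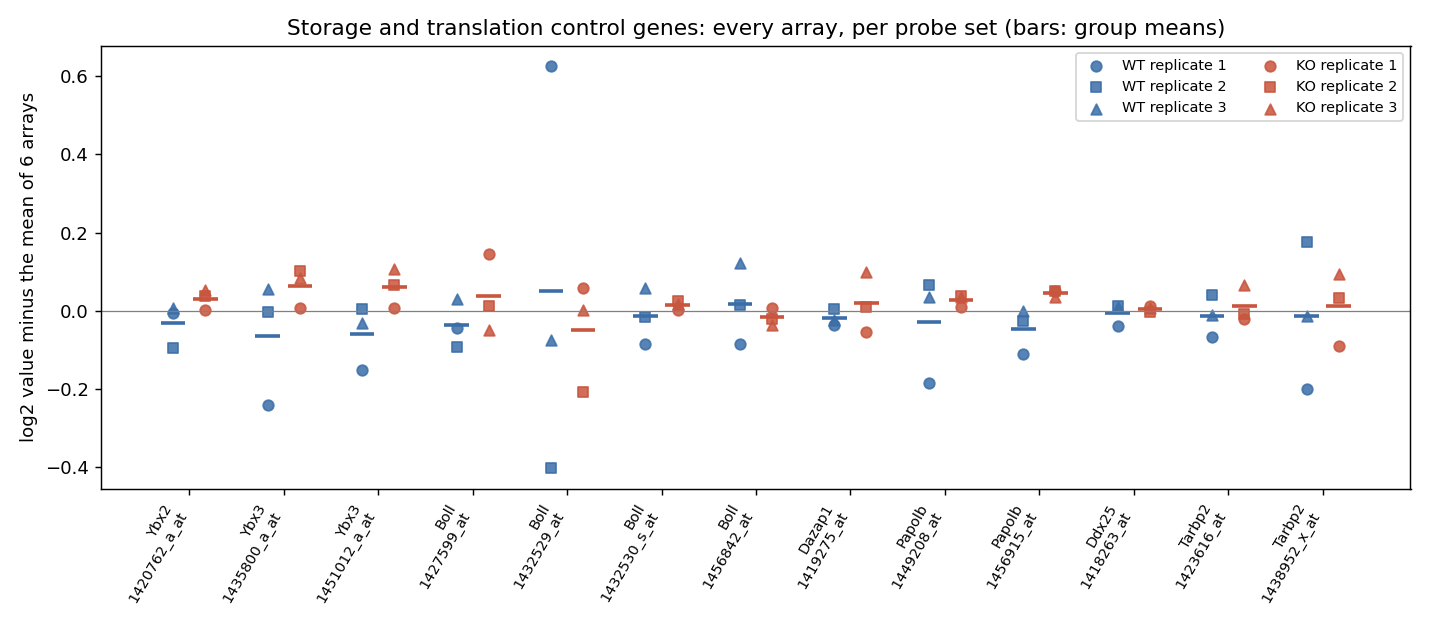
Log2 value of each array minus the mean of the 6 arrays, for the 13 probe sets (x axis), with WT in blue, KO in red, a symbol per replicate and bars for group means. WT replicate 1 (blue circle) is the lowest array at 9 of 13 probe sets, and the widest spread is that of Boll 1432529_at.

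**Figure D2:**
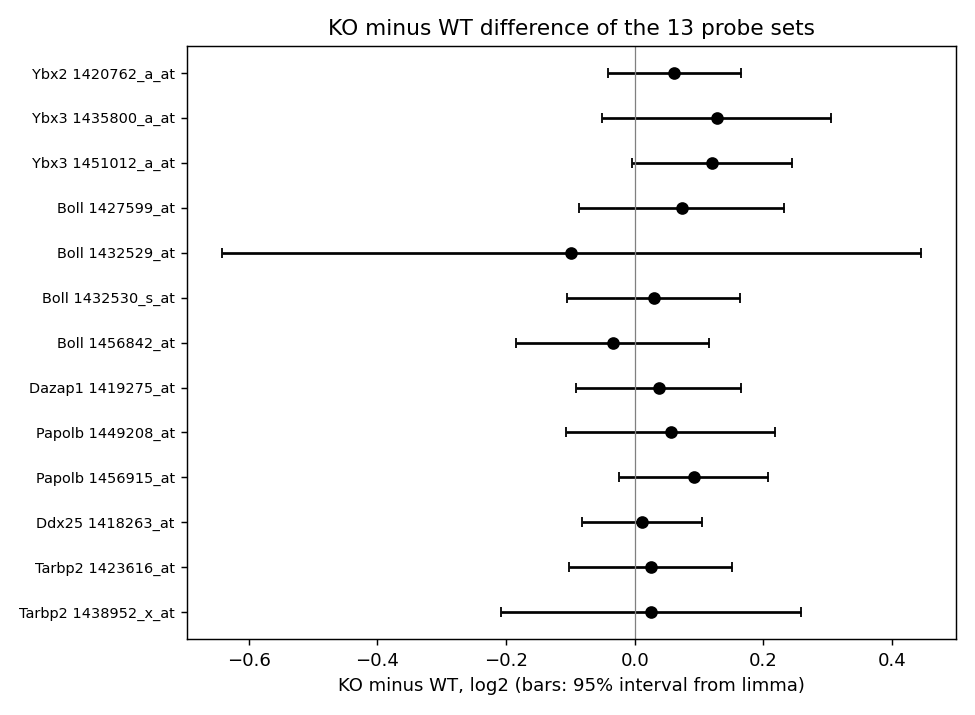
KO minus WT difference of each of the 13 probe sets in log2, with its 95% interval from limma. Every interval includes 0, and that of Boll 1432529_at is the widest, from −0.64 to 0.44.

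Ybx2 encodes MSY2, the germ cell Y-box protein that coats and stabilises stored mRNAs. Its probe set 1420762_a_at read 13.91, 13.82 and 13.92 in WT replicates 1, 2 and 3 and 13.91, 13.95 and 13.96 in KO replicates 1, 2 and 3. KO replicate 1 lay inside the WT range, while KO replicates 2 and 3 lay above all WT values. The difference was 0.06 ± 0.04 (SE, n = 3 each), 1.04-fold, with a 95% interval from 0.971 to 1.12-fold (limma adjusted p = 0.993). It was 0.03 without WT replicate 2 and 0.02 with quantile normalization.

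Ybx3, also known as Csda or MSY4, is a more widely expressed Y-box protein that acts beside MSY2 in germ cells. At 1435800_a_at it read 13.86, 14.10 and 14.16 in WT and 14.11, 14.20 and 14.19 in KO. Here KO replicate 1 lay below WT replicate 3, and WT replicate 1 stood 0.24 below the mean of all arrays. The difference was 0.13 ± 0.08 (limma adjusted p = 0.993), and 0.04 without WT replicate 1.

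The other Ybx3 probe set, 1451012_a_at, read 13.87, 14.02 and 13.99 in WT and 14.03, 14.09 and 14.13 in KO. All 3 KO values lay above all 3 WT values, the closest pair being WT replicate 2 and KO replicate 1. It had the smallest p among the 13 probe sets (unadjusted 0.0562), with a difference of 0.12 ± 0.05 and an interval from 0.997 to 1.18-fold (limma adjusted p = 0.982). Without WT replicate 1 the difference was 0.07. Values of Ybx2 and Ybx3 lay near the upper end of the values on the arrays, and log2 differences can be compressed there.

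Ybx3 was the only one of the 7 genes that shared a chromosome with a named gene that passed the test. It lies on chromosome 6, as do Grin2b, an NMDA receptor subunit, and Ptpro, a receptor-type phosphatase, which rose by 1.29 and 2.03 log2 (limma adjusted p = 0.0181 and 0.00944). Ptpro read 5.40, 5.92 and 5.94 in WT, below the lowest mean kept by the level filter (6.02). In KO it read 7.79, 7.61 and 7.95, so it passed that filter only through the KO arrays. Between Ybx3 and Grin2b in the RefSeq order, 26 probe sets of 19 genes were tested. Of these 20 were above 0 and 6 below, with a median of 0.053 log2, 6 at an unadjusted p under 0.05 and 0 called. These are 76.9% above 0 and 23.1% under that p, against 56.4% and 5.11% of all tested probe sets. Between Grin2b and Ptpro, of 12 probe sets of 8 genes, 6 were above 0 and 6 below, with 4 at an unadjusted p under 0.05 and 0 called. The part of this position in the Ybx3 values was not tested.

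Boll encodes BOULE, the oldest member of the DAZ family of germ cell translation factors, and had 4 probe sets. At 1427599_at it read 10.45, 10.41 and 10.53 in WT and 10.64, 10.51 and 10.45 in KO, a difference of 0.07 ± 0.07. The highest and the lowest array there were KO replicate 1 and WT replicate 2, the groups overlapped, and the difference was 0.02 without KO replicate 1. At 1456842_at the values were 10.61, 10.72 and 10.82 in WT and 10.71, 10.68 and 10.66 in KO, a difference of −0.03 ± 0.06. The WT values enclosed all 3 KO values.

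Probe set 1432530_s_at of Boll, whose suffix marks probes that can read transcripts of more than 1 gene, read 10.22, 10.29 and 10.36 in WT and 10.31, 10.33 and 10.32 in KO. The KO values again lay inside the WT range, with a difference of 0.03 ± 0.06. The dimmer 1432529_at read 8.06, 7.03 and 7.36 in WT and 7.49, 7.22 and 7.43 in KO. WT replicates 1 and 2 took the highest and the lowest place, 1.03 log2 apart, and the difference of −0.10 ± 0.23 became 0.19 without WT replicate 1. The 4 Boll probe sets thus did not share a direction, and limma adjusted p was 0.993 or 0.994 at each.

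Dazap1 encodes an hnRNP-like protein that binds DAZ proteins and acts in splicing and translation. At its single probe set, 1419275_at, it read 11.64, 11.68 and 11.65 in WT and 11.62, 11.68 and 11.77 in KO. The KO values spread wider (SD 0.077) than the WT values (SD 0.021), with KO replicates 1 and 3 the lowest and the highest of all arrays. The difference was 0.04 ± 0.06, 1.03-fold, with an interval from 0.939 to 1.12-fold (limma adjusted p = 0.993).

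Papolb encodes TPAP, a cytoplasmic poly(A) polymerase of spermatids that lengthens the tails of selected mRNAs. At 1456915_at it read 11.77, 11.85 and 11.88 in WT and 11.93, 11.93 and 11.91 in KO. All KO values lay above all WT values and within 0.016 log2 of each other. The difference was 0.09 ± 0.05, with an interval from 0.984 to 1.15-fold (limma adjusted p = 0.993), and 0.06 without WT replicate 1.

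The other Papolb probe set, 1449208_at, did not separate the groups. It read 12.30, 12.55 and 12.52 in WT and 12.50, 12.53 and 12.52 in KO. WT replicate 1 was lowest and WT replicate 2 highest, and the difference of 0.06 ± 0.07 (limma adjusted p = 0.993) became −0.02 without WT replicate 1. Papola, the poly(A) polymerase gene of most tissues, was tested at 5 probe sets with differences from −0.10 to 0.09, none of which passed (limma adjusted p from 0.993 to 0.994).

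Ddx25 encodes GRTH, a DEAD-box RNA helicase of germ and Leydig cells that exports mRNAs and sits in the chromatoid body of spermatids. Its probe set 1418263_at read 13.30, 13.35 and 13.35 in WT and 13.35, 13.34 and 13.35 in KO. The 6 values lay within 0.052 log2, the narrowest range of the 13 probe sets, and WT replicate 1 was the lowest. The difference was 0.01 ± 0.04, with an interval from 0.944 to 1.07-fold (limma adjusted p = 0.997). Its sign depended on the scaling, at −0.04 with quantile normalization and −0.00065 with median centring.

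Tarbp2 encodes a double-stranded RNA-binding protein that partners Dicer and is required for timely translation of protamine mRNAs. At 1423616_at it read 11.14, 11.24 and 11.19 in WT and 11.18, 11.20 and 11.27 in KO, a difference of 0.02 ± 0.05 (limma adjusted p = 0.994) that was −0.0011 with quantile normalization. At 1438952_x_at, whose suffix marks probes open to cross-hybridisation, it read 9.95, 10.33 and 10.14 in WT and 10.06, 10.18 and 10.25 in KO. WT replicates 1 and 2 were the lowest and the highest array there and enclosed the KO values. The difference was 0.02 ± 0.10 (limma adjusted p = 0.998).

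Between groups, 2 of the 13 probe sets had no overlap, 1451012_a_at of Ybx3 and 1456915_at of Papolb, both higher in KO. Over all tested probe sets 11% had no overlap, 7.12% being higher in KO, and a count of 2 of 13 is near that background. For both genes the other probe set overlapped.

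WT replicate 1 was the lowest array at 9 of the 13 probe sets, which were those of Ybx3, Papolb, Ddx25 and Tarbp2 and 2 of Boll. This array was the lowest at 32.7% of all tested probe sets and at 38.9% of the 17308 whose mean was at or above that of the dimmest of the 13. Its median deviation from the mean of all arrays was −0.085 log2 over the 13 and −0.044 over those 17308. Without it, 7 of 13 differences were above 0 and 6 below, in place of 11 and 2, and the median of all tested probe sets moved from 0.013 to 0.0016. KO replicates were also closer together than WT replicates at 11 of 13 probe sets, as they were at 65.5% of all tested probe sets.

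**Figure D3:**
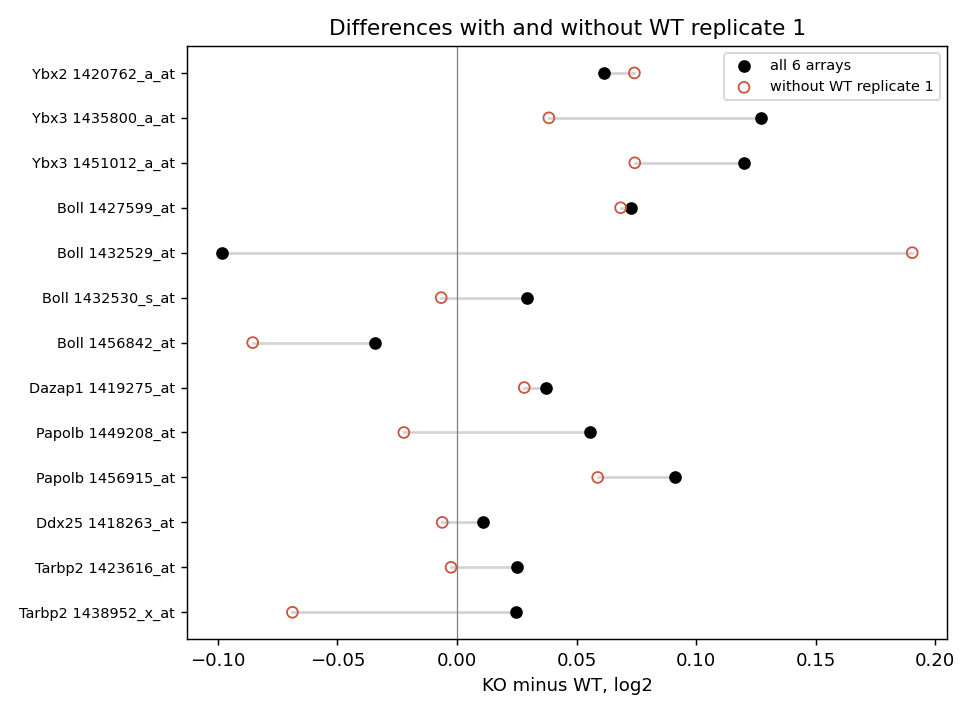
KO minus WT difference in log2 of the 13 probe sets with all 6 arrays (filled) and without WT replicate 1 (open). The 2 Ybx3 differences stay above 0 and become smaller, and 6 differences change sign.

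Cell type markers, read at 1 probe set per gene, differed by small amounts as well, and none passed the test. Of 9 round spermatid genes 9 were higher in KO, with mean log2 values from 12.16 to 12.28 in WT and from 12.27 to 12.36 in KO, and their summed level ran from 15.50 to 15.60 in WT and from 15.58 to 15.66 in KO. Of 9 elongating spermatid genes 9 were higher, with a summed level from 17.67 to 17.74 in WT and from 17.72 to 17.75 in KO. Over all 20 tested probe sets of this list 16 were above 0, and 9 with quantile normalization. Round spermatid probe sets above 0 were 11 of 12, and 10 with quantile normalization. Sertoli cell probe sets below 0 were 13 of 18, and 14 with quantile normalization. Of 11 Sertoli cell genes 8 were lower, with mean values from 9.38 to 9.42 in WT and from 9.31 to 9.33 in KO, while their summed level overlapped, from 13.99 to 14.15 in WT and from 13.98 to 14.06 in KO. Mean values of the round and elongating spermatid lists overlapped between groups, as did those of spermatogonia, pachytene spermatocyte, Leydig cell, myoid and vascular, and macrophage markers. Of 5 macrophage genes 5 were higher in KO. Of 6 marker genes of Leydig cells, which also express Ddx25, 4 were tested. Their mean values ran from 10.79 to 11.02 in WT and from 10.76 to 11.05 in KO. Over all 6 tested Leydig cell probe sets 4 were below 0 and 2 above. The differences ran from −0.41 to 0.19 log2, with a median of −0.24, and none passed. The part of these markers in the values of the 7 genes was not tested. In whole testis, fewer cells of a type and less RNA per cell cannot be told apart.

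The wider pathway was read from 8 lists of related genes, of which 120 genes were tested at 288 probe sets. Of these 0 passed in either direction (limma, smallest adjusted p = 0.847), and 17 (12 higher, 5 lower) had an unadjusted p under 0.05, or 5.90% against 5.11% of all tested probe sets. The median difference was 0.029 log2, with 188 above 0 and 100 below (155 and 133 with quantile normalization), or 65.3% above 0 against 56.4% of all tested probe sets. Without WT replicate 1 the median was 0.015, with 157 above 0 and 131 below.

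**Figure D4:**
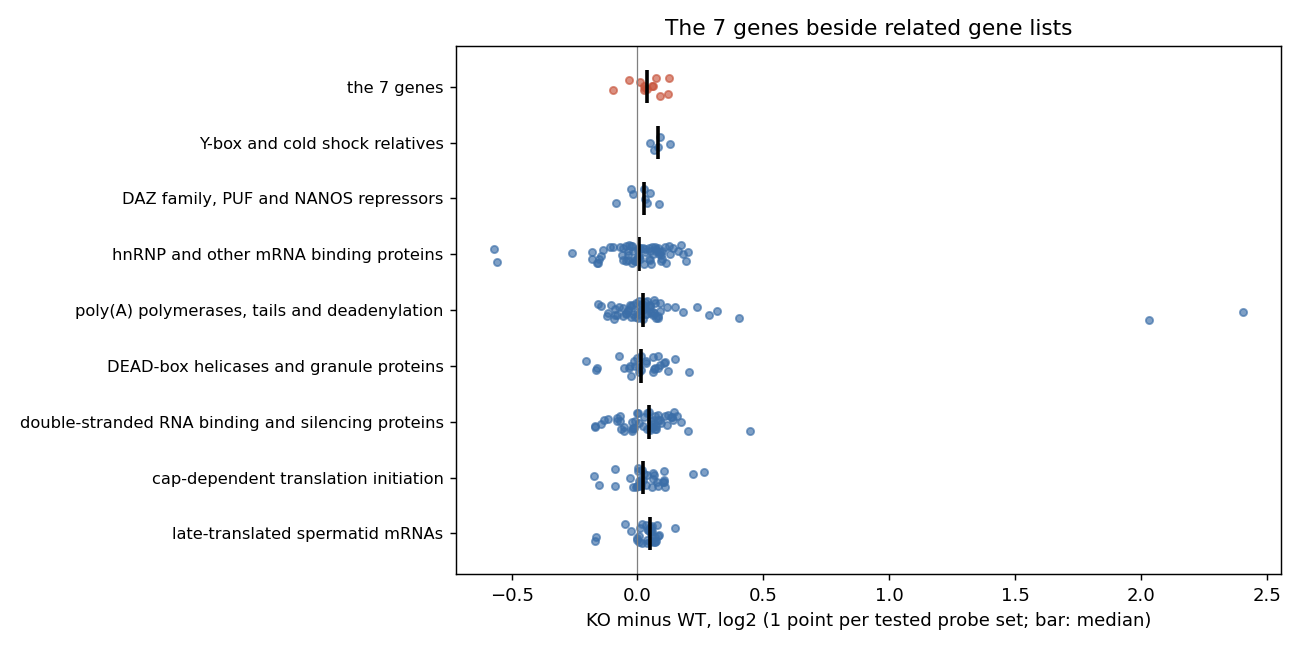
KO minus WT difference in log2 of each tested probe set of the 7 genes (red) and of 8 lists of related genes (blue), with the median of each row as a bar. List medians lie between 0.007 and 0.083, and the 2 points beyond 2 log2 are probe sets of Paip1.

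Among relatives of the Y-box proteins, 0 of 5 probe sets passed and 5 of 5 were above 0. Ybx1, the family's ubiquitous member, read 13.59, 13.71 and 13.72 in WT and 13.72, 13.77 and 13.79 in KO at 1418624_at, a difference of 0.09 ± 0.05 (limma adjusted p = 0.993). The KO values lay above the WT values there and WT replicate 1 was lowest, while at its other tested probe set, 1438064_at, the groups overlapped, with a difference of 0.05. Carhsp1, a cold shock domain protein, stood at 0.08 and 0.06.

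In the list of DAZ, PUF and NANOS proteins 0 of 8 probe sets passed, 5 being above 0. Dazl, the meiotic relative of Boll, stood at 0.05 and −0.02, Nanos1, a translational repressor, at 0.09 and Pum2, which represses mRNAs through their tails, at −0.09 at its probe set with the smallest p. The other tested probe sets of Pum2 were at 0.04 and 0.03. For hnRNP and other mRNA-binding proteins 0 of 67 passed, 38 being above 0. Elavl2, a binder of AU-rich mRNAs, stood at −0.26 ± 0.09 at its probe set with the smallest p, and at −0.18 and 0.01 at the others. Msi2, a translational regulator, stood at −0.18 at 1435520_at, 0.17 at 1436818_a_at and −0.57 at 1435521_at (limma adjusted p from 0.863 to 0.999 for these). The other 2 probe sets of Msi2 were at 0.18 and −0.05.

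Among DEAD-box helicases and granule proteins 0 of 29 probe sets passed, 18 being above 0. Those with the smallest p were both of mRNA export genes, Nxf1 at 0.21 ± 0.07 and its X-linked relative Nxf2 at −0.20 ± 0.06 (limma adjusted p = 0.863 for both). The other tested probe set of Nxf1, 1439092_at, was at 0.01 with overlapping groups. For double-stranded RNA-binding and silencing proteins 0 of 51 passed, 32 being above 0. Zfr, a zinc finger RNA-binding protein, stood at 0.20 at the one of its 5 probe sets with the smallest p, and at −0.01, 0.06, 0.08 and 0.17 at the others. Xpo5, the exporter of miRNA precursors, stood at −0.17 and −0.14. Prkra, the paralogue of Tarbp2 that also binds Dicer, stood at −0.12 ± 0.07 (limma adjusted p = 0.993) with overlapping groups.

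In cap-dependent initiation 0 of 33 probe sets passed, 25 being above 0. Eif4g3, an initiation scaffold needed for male meiosis, stood at 0.26, 0.22, 0.08 and 0.06 at its 4 probe sets, and at 1440571_at all 3 KO values (7.01, 7.02 and 7.11) lay above all 3 WT values (6.83, 6.75 and 6.77). Its limma adjusted p there, 0.847, was the smallest of the related genes. Eif4b, which assists the initiation helicase, stood at 0.10, 0.08 and 0.01.

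The mRNAs listed as late-translated in spermatids did not pass the test either. Their list holds every elongating spermatid marker gene given above, so its counts and those of the markers are not separate results. It also holds Pgk2 and Ldhc, which served as pachytene spermatocyte markers too. Of 33 probe sets of 16 genes 0 passed and 27 were above 0 (18 with quantile normalization), with a median of 0.049 log2. Without WT replicate 1, which was the lowest array at 22 of the 33, 20 were above 0 and the median was 0.013. Prm1, a protamine, stood at 0.08, 0.08 and 0.02 and Prm2 at 0.01. The transition protein genes were at 0.01 and −0.02 for Tnp1 and at 0.05 for Tnp2 (limma adjusted p from 0.993 to 0.999 for these). The brightest Prm1 probe set read 14.95, 14.98 and 14.98 in WT, at the upper end of the scale. Odf2, of the sperm tail, stood at 0.15 ± 0.05 and Cypt1, of the perinuclear theca, at −0.17 ± 0.06 (limma adjusted p = 0.89 and 0.909), the other 4 probe sets of Odf2 lying from 0.04 to 0.07.

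In the list of poly(A) tail factors, Paip1 alone gave the 2 widest differences among the related genes. Of 62 probe sets 0 passed, 38 being above 0, and Cpeb4, which controls translation through tail length, stood at 0.28 ± 0.11 (limma adjusted p = 0.932) at 1449931_at, and at 0.04 and −0.0040 at its other probe sets. Paip1, a partner of the poly(A)-binding protein that promotes translation, read 4.89, 5.78 and 5.90 in WT and 9.57, 8.84 and 5.38 in KO at 1425521_at. At 1441955_s_at it read 4.92, 5.68 and 5.53 in WT and 8.70, 7.75 and 5.77 in KO. KO replicates 1 and 2 were high at both, while KO replicate 3 read like the WT arrays. The WT values and KO replicate 3 lay below the lowest mean kept by the level filter (6.02) at both. Both probe sets thus passed that filter only through KO replicates 1 and 2. The third tested probe set, 1451740_at, read 8.98, 9.21 and 9.17 in WT and 9.91, 9.46 and 9.20 in KO. The differences of 2.41, 2.03 and 0.40 did not pass (limma adjusted p = 0.936, 0.863 and 0.961).

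**Figure D5:**
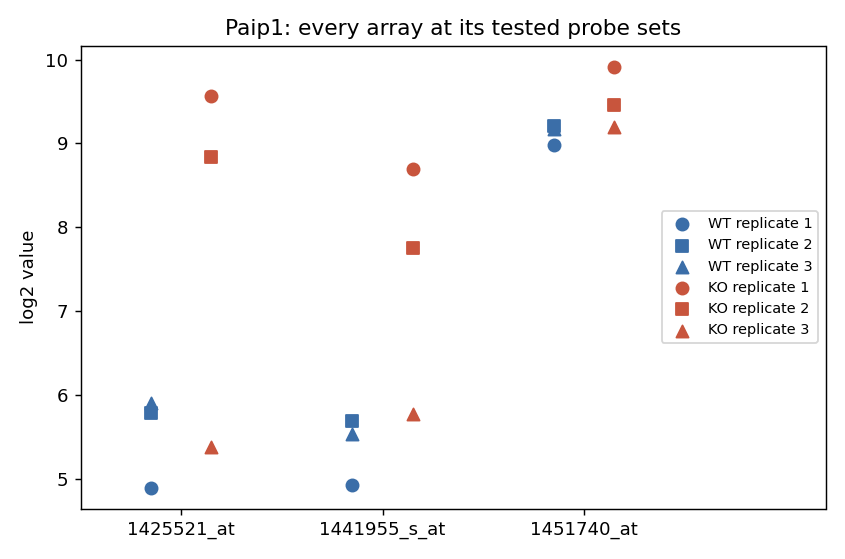
Log2 value of every array at the 3 tested probe sets of Paip1, WT in blue and KO in red, with a symbol per replicate. KO replicates 1 and 2 lie above the other 4 arrays at all 3 probe sets, and KO replicate 3 lies among or next to the WT arrays.

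For the brightest tested probe set of each of the 7 genes, the probe set whose values ran most alike over the 6 arrays was sought among all tested probe sets that name another gene, by Pearson's r as a measure of likeness with no test. The probe sets found were those of Erdr1 for Ybx2 (r = 0.995), Arid2 for Ybx3 (0.999), Tmem247 for Boll (0.993), Rtl8c for Dazap1 (0.991), Rimbp3 for Papolb (0.999), Rev3l for Ddx25 (0.996) and Cspp1 for Tarbp2 (0.995). These matches belong to those probe sets and not to the genes as a whole. With 6 arrays many probe sets come close. For Papolb 1398 probe sets had r above 0.9, and for Boll, the fewest, 137.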

How the data were processed

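RNA of whole testes was labelled with biotin and hybridised to 1 Affymetrix array per mouse, per the labels. The authors deposited normalized log2 values for 45101 probe sets on 6 arrays. The submitters' processing notes list GCOS 1.4. How background, probes and arrays were treated is not stated there, and the scale was taken to be log2 from the range of the values. A normalization that equalises arrays hides a change of all transcripts. Signal over background is unknown, since detection calls were not used here.

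Without the 64 control probe sets, the upper 60% by mean (27022, lowest mean 6.02) were tested by limma 3.58.1 in R 4.3.3 (lmFit, eBayes with intensity trend, two-sided, Benjamini-Hochberg, threshold 0.05). Names came from the platform annotation, updated through gene ids with RefSeq (GRCm38.p6, also the source of sequences). The number of arrays limits precision (median standard error 0.082 log2). One probe set per gene, the brightest, represented each marker. The labels call the samples biological replicates. Named genes were the 7 members, from each related list those that passed or otherwise the 2 with the smallest p, 8 fixed relatives, Alkbh1 and the most alike gene of each member. Msi2 at 1435521_at and 1436818_a_at was named after its values were seen. Members and lists were chosen with earlier results of these data known. On simulated data the fit recovered 69.4% of changes of 0.5 log2 and 99.5% of changes of 1 log2, and 6.63% of calls were false. Each of 10 simulated runs held 100 changes of each size in independent normal noise, without an effect of any array. These shares therefore need not hold for the measured arrays. Alternatives covered normalization, the level filter, variance moderation, a replicate block, gene means and leaving out arrays. Figures were drawn with matplotlib 3.10.9.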

Additional observations from a re-analysis of the deposited data

How the results depend on the processing

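Over 15 alternatives 0 probe sets (or genes) of the 7 genes passed, with the smallest limma adjusted p from 0.502 to 1.000, and 0 of the related genes passed, with the smallest from 0.0566 (without KO replicate 3) to 1.000. The count over all probe sets was 11, and it was 7 with the upper 40% by mean, 2 without WT replicates 1 and 2 together (chosen after seeing the data, leaving 1 WT array that is assumed to vary like the KO arrays) and from 2 to 12 when single arrays were left out, with the lowest counts without KO replicate 3 (2), WT replicate 3 (4) and KO replicate 1 (6). In 9 of 14 alternatives the difference of a probe set can move (the level filters, the trend and robust settings and the replicate block leave it as it is), and of 117 differences under these 100 kept their direction and 17 did not, none of them called. Quantile normalization gave −0.0353 for Ddx25 and −0.0011 for Tarbp2 1423616_at, and median centring −0.00065 for Ddx25. Leaving out 1 array gave ranges from −0.32 to 0.19 for Boll 1432529_at, from −0.0066 to 0.065 for 1432530_s_at, from −0.085 to 0.018 for 1456842_at, from −0.0038 to 0.073 for Dazap1, from −0.022 to 0.102 for Papolb 1449208_at, from −0.0062 to 0.0196 for Ddx25, from −0.0025 to 0.052 for Tarbp2 1423616_at and from −0.069 to 0.119 for 1438952_x_at. Most of these sign changes came without WT replicate 1 (6 of 10). Without WT replicates 1 and 2 the values were 0.0258 (Boll 1432529_at), −0.0431 (1432530_s_at), −0.0074 (Papolb 1449208_at) and −0.0053 (Ddx25). The cause of these changes was not tested. The labels give no pairing of same-numbered replicates, and the correlations of their deviations were 0.22, −0.024 and 0.096. Those of differently numbered replicates ran from −0.28 to 0.25. With 3 arrays per group these correlations cannot decide whether replicates were paired. With the replicate number as a block 9 probe sets were called, 0 of them of the 7 genes or the related genes.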

Other observations

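Of the 6 tested genes nearest to Paip1 on chromosome 13, 2 had probe sets that set KO replicates 1 and 2 apart from the other 4 arrays. The next tested gene, 4833420G17Rik, read 9.12, 9.42 and 9.49 in WT and 7.25, 8.72 and 9.43 in KO at 1419635_at, and KO replicates 1 and 2 were the lowest arrays at its other 2 probe sets too. Tmem267, a membrane protein gene 2 places further, read 12.53, 12.87 and 12.35 in WT and 9.54, 11.87 and 12.72 in KO. Where Paip1 was high in KO replicates 1 and 2, these 2 genes were low there. The gene between them, 3110070M22Rik, did not separate these arrays, with 11.18, 11.64 and 10.82 in WT and 10.57, 10.84 and 11.35 in KO. On the other side, Nnt, the mitochondrial transhydrogenase, Fgf10 and 1700003P14Rik did not do so either, Nnt reading 10.49, 10.86 and 10.78 in WT and 10.13, 10.50 and 10.77 in KO at 1416105_at. Of the 9 tested probe sets of these 6 genes, 4 had both values on one side of the other 4 arrays, all 4 below and 3 of them of 4833420G17Rik, against 13.3% of all tested probe sets. These genes were looked at after the Paip1 values were seen, none passed between KO and WT, and no test was run of a difference within the KO group. The same look was taken around Elavl1 on chromosome 8, where KO replicates 1 and 2 were the lowest arrays at 1440464_at. Of 16 tested probe sets there, those of Elavl1 included, 2 had both values below the other 4 arrays (12.5%).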
